A study of Homo sapiens with 12 samples.

Results

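The genes described here are the collagen, laminin and integrin chains, followed in HK-2 cells exposed to a compound that the labels call Nnm. A gene was taken where its symbol in the array annotation began with COL and a digit, with LAMA, LAMB or LAMC and a digit, or was that of an ITGA or ITGB subunit, and where at least 1 probe set named it alone. This gave 81 of the 19775 genes that a probe set named alone. They were 43 collagen chains, 10 laminin chains, 24 integrin subunits and 4 symbols taken in by their letters, namely the antisense RNAs COL18A1-AS1, LAMA4-AS1 and LAMA5-AS1 and the pseudogene LAMB2P1. ITGB6 was named only by probe sets that also name LINC02478 and is not counted. Where several probe sets named a gene alone, the one that was brightest on average over the 12 arrays stood for it.

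HK-2 cells are immortalized human epithelial cells of the renal proximal tubule, and they stand for a single line in culture, not for tubules in the kidney. The 4 groups were Nnm at a high dose for 24 h, its vehicle control for 24 h, Nnm at a high dose for 48 h and its vehicle control for 48 h, with 3 biological replicates and 3 Affymetrix arrays in each. The sources used here give the dose only as high and do not name the vehicle. All groups grew in the same mix of DMEM and Ham's F12, supplemented with insulin, transferrin, selenite, hydrocortisone and EGF, and were near confluence when treated. The study looked for expression signatures of kidney toxicity, and the comparison of Nnm with vehicle at each time asks which of these transcripts Nnm cells held at other levels.

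Collagens and laminins are secreted as trimers of chains, and integrins are pairs of an alpha and a beta subunit that span the membrane. In the basement membrane under kidney tubules, type IV collagen and laminin form networks that nidogen and perlecan join, while epithelial integrins hold the cell to them and pass force to actin. Fibrillar collagens such as type I make up the interstitial matrix and are made mainly by fibroblasts. Type IV collagen has 6 chains, encoded by 3 head-to-head gene pairs, and of these the COL4A1 and COL4A2 products are found in basement membranes throughout the body, whereas the COL4A3, COL4A4 and COL4A5 products form the network of the glomerular membrane and parts of the tubule.

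The start sites of COL4A1 and COL4A2 lie 127 bases apart on chromosome 13 and run in opposite directions, so that promoter windows reaching 250 bases before to 50 bases after each start share 226 bases. Both windows are shown because the pair is described together below, and those of ITGA2 and LAMB3 because these genes had the largest increases among the integrin and laminin chains. They were taken from RefSeq on GRCh38.p14 and are written on the strand of the gene. Capitals mark matches, on either strand, to the letters of 5 motifs: CCAAT (the CCAAT box), GGGCGG (the GC box), TGANTCA (AP-1), GGAATG (TEAD) and TATAAA (the TATA box). COL4A1 is at chr13:110307108-110307407 on the minus strand, COL4A2 at chr13:110307034-110307333 on the plus strand, ITGA2 at chr5:52989102-52989401 on the plus strand and LAMB3 at chr1:209652376-209652675 on the minus strand, where the first of the 3 windows listed for LAMB3 is given.
COL4A1: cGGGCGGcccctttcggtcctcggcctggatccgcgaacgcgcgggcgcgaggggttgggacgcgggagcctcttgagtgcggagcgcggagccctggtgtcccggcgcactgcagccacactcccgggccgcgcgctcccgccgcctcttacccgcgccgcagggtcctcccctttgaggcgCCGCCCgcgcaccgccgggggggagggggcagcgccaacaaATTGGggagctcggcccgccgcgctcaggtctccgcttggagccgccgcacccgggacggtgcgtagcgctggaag
COL4A2: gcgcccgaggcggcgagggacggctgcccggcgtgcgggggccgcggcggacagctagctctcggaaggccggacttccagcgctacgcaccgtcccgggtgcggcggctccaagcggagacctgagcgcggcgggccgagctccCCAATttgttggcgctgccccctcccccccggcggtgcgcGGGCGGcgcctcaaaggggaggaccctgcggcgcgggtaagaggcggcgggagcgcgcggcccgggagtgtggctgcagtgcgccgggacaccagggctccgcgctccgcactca
ITGA2: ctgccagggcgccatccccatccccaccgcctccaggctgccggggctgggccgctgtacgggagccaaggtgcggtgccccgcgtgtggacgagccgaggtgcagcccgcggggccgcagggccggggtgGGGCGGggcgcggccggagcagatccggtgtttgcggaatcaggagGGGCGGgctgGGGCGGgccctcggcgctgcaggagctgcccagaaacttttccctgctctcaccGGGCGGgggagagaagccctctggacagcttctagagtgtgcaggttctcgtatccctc
LAMB3: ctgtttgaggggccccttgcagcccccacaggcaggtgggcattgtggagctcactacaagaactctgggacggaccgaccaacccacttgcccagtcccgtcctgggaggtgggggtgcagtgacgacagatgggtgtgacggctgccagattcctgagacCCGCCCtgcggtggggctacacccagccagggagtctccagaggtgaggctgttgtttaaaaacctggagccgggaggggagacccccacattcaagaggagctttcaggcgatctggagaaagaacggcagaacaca
The CCAAT match of COL4A1, at -26 to -22 from its start, and that of COL4A2, at -105 to -101, are the same shared bases. They are read on opposite strands. The same holds for the GC box of COL4A1 at -67 to -62 and that of COL4A2 at -65 to -60. ITGA2 held 4 GC boxes, at -119, -73, -63 and -9, and LAMB3 held 1, at -88 to -83. Of the 81 genes, 58 had a window. Among these 58, a CCAAT box stood in 16, a GC box in 32, the AP-1 letters in 2, the TEAD letters in 5 and a TATA box in 5. The shares over all 35116 promoter windows were 34.6% for CCAAT, 45% for the GC box, 7.71% for AP-1, 14% for TEAD and 11.5% for the TATA box. A match describes letters only and does not show that a factor binds.

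Values are log2 expression as deposited, and a gene was tested where it was above log2 4 on at least 3 of the 12 arrays. Array medians lay between 2.91 and 2.98. On the first principal component, with 57.4% of the variance, Nnm replicates 1 and 3 of both times lay between 68.6 and 87.8, Nnm replicate 2 at -16.1 for 24 h and -19.8 for 48 h, and the control arrays between -49.6 and -44.2. Nnm replicate 2 thus stood nearer to the control arrays at both times, and the counts are given with and without it, as are the values of the chains that it moved most. Leaving out the Nnm arrays nearest to the control arrays favours larger differences and smaller p-values. Calls of that fit are therefore given as description and not as separate support. The epithelial adhesion protein EPCAM was at 12.95 and 13.19 in Nnm cells of 24 h and 48 h and at 13.01 and 13.29 in the control cells of those times. Keratins and E-cadherin differed at 24 h by -0.59 (KRT8), -0.65 (KRT18), -0.64 (KRT19), -0.68 (KRT7) and -0.43 (CDH1), none called (limma, adjusted p 0.132 to 0.393). In the other direction CDH2 differed by 0.465 and PAX8 by 0.293 at 24 h, not called (limma, adjusted p = 0.142 and 0.203). Of the 8 tested epithelial and tubule markers 1 had an unadjusted p under 0.05. With the replicate block KRT8 was called lower (0.0222) and CDH2 higher (0.0387) at 24 h. The summed level of the 15 epithelial and tubule markers on the array ranged over 14.48 to 14.56 in Nnm cells and 14.71 to 14.98 in control cells at 24 h, without overlap. At 48 h it ranged over 14.44 to 15.08 in Nnm cells and 14.58 to 14.90 in control cells. The part of this shift in the results below was not tested. The proximal tubule markers ANPEP, GGT1, LRP2, CUBN, AQP1 and SLC34A1 lay under log2 4 on every array. Of 11 fibroblast markers 4 were tested, among them DCN (decorin), at 11.81 in Nnm cells of 24 h against 12.19 in control cells and at 11.78 against 11.90 at 48 h. The summed fibroblast level ranged over 11.90 to 12.81 in Nnm cells and 12.42 to 12.88 in control cells at 24 h, and over 12.06 to 12.70 in Nnm cells and 12.33 to 12.42 in control cells at 48 h. None of these 4 was called at either time by limma (1 at an unadjusted p under 0.05 at 24 h and 0 at 48 h), and 1, which was the collagen chain COL1A1 itself, was lower at 24 h once the replicate number entered the model as a block. Of 9 leukocyte markers on the array 0 passed the filter, 4 of them integrin subunits counted here as untested chains (ITGAL, ITGAM, ITGAX and ITGB2). Markers of podocytes (2 tested), endothelium (1) and distal nephron (1) gave 0 calls at either time by limma, with 1 podocyte marker at 24 h and 1 podocyte and 1 distal marker at 48 h at an unadjusted p under 0.05, and with the block 1 podocyte marker was higher at each time. In RNA from a whole culture, fewer cells of a type and less RNA per cell cannot be told apart.

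Of the 77 chains, 41 were tested: 19 collagen chains, 8 laminin chains and 14 integrin subunits. The remaining 36 lay at log2 2.02 to 5.20, and 32 of all 77 were above log2 4 on no array. Untested collagens included COL1A2, the partner of COL1A1 in type I collagen, the other fibrillar chains COL2A1, COL3A1, COL5A1, COL5A2, COL5A3, COL11A1 and COL24A1, the type VI chains COL6A3, COL6A5 and COL6A6, the type IV chain COL4A6, all 3 chains of type IX (COL9A1, COL9A2 and COL9A3), and COL10A1, COL13A1, COL15A1, COL19A1, COL20A1, COL21A1, COL23A1, COL25A1 and COL28A1. Untested laminins were LAMA4 and LAMB4. Untested integrins were the leukocyte subunits ITGAL, ITGAM, ITGAX, ITGB2 and ITGB7, and ITGA1, ITGA8, ITGA9, ITGA10 and ITGA11, which pair with ITGB1. Of these, ITGA10, a collagen receptor subunit of cartilage, was at 5.20, 2.25 and 4.87 on Nnm replicates 1, 2 and 3 at 48 h, against 2.24, 2.24 and 2.25 on the control arrays. It was above log2 4 on 2 arrays only, so it was not tested, and it was picked out after its values were seen. The 4 symbols that are no chains reached at most 3.31.

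At 24 h, ITGA2 and LAMC1 were called higher in Nnm cells (limma, Benjamini-Hochberg adjusted p under 0.05 over all tested probe sets), which is 2 of 41 chains or 4.88%, against 8.31% of the 10963 genes tested. By the same test 0 chains were called lower (5 at an unadjusted p under 0.05), against 8.21% of all genes. At 48 h, COL22A1, ITGA2, ITGA4, ITGAE, ITGB5 and LAMB3 were called higher, 6 of 41 or 14.6% against 6.55% of all genes, and COL4A1 and LAMA1 lower, 2 of 41 or 4.88% against 4.27%. The median difference over the 41 chains was -0.09 at 24 h and -0.03 at 48 h, and the median of its absolute size 0.34 and 0.39, beside 0.38 and 0.33 over all genes tested. Chains thus differed in both directions at 48 h.

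Same-numbered arrays deviated together from their group means, so the fit was repeated with a block for the replicate number. Then 8 chains (19.5%) were called higher at 24 h, against 15.6% of all genes, and 4 (9.76%) lower, against 15.9%. At 48 h the block gave 7 chains higher (17.1%), against 13.2% of all genes, and 6 lower (14.6%), against 9.68%. The chains that the block added at 24 h were COL6A1, COL6A2, ITGAE, ITGB5, LAMB1 and LAMB3 on the higher side and COL1A1, COL18A1, ITGB3 and ITGB4 on the lower side. At 48 h it added COL6A2 on the higher side and COL4A2, COL4A3, COL4A4 and ITGA6 on the lower side. Without the Nnm arrays numbered 2, 8 chains were higher at 24 h (19.5%, against 25.4% of all genes) and 11 lower (26.8%, against 24.5%). In that fit 11 were higher at 48 h (26.8%, against 24.9%) and 9 lower (22%, against 19.9%). It added at 24 h COL6A1, COL22A1, LAMB3, ITGAE, ITGB1 and ITGB5 on the higher side and COL1A1, COL4A1, COL8A1, COL27A1, LAMA1, LAMA5, LAMB2, ITGA6, ITGB3, ITGB4 and ITGB8 on the lower side. The same fit added at 48 h COL6A1, LAMB1, ITGA5, ITGA7 and ITGB1 on the higher side and COL1A1, COL4A3, COL4A4, COL4A5, COL8A1, ITGA6 and ITGB8 on the lower side. Once the Nnm arrays numbered 2 are left out, COL4A3 was above log2 4 on control arrays of 48 h only. Its remaining Nnm arrays of 48 h were at 2.55 and 2.58. COL4A3 is counted in every fit without those arrays, but its call there is not read as a result. A block for the replicate number within each time, which leaves fewer degrees of freedom, called 0 chains at either time (14 and 17 at an unadjusted p under 0.05). There the adjusted p was 0.111 for ITGA2 and 0.117 for LAMC1 at 24 h and 0.0915 to 0.116 for the 8 chains called at 48 h without it.

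Counting only whether the 3 Nnm arrays all lay above or all below the 3 control arrays, 9 chains were above at 24 h (22%, against 19.6% of all genes) and 4 below (9.76%, against 20%), and at 48 h 8 were above (19.5%, against 20.7%) and 8 below (19.5%, against 16.9%). LAMB1, LAMB3, ITGA2, ITGAE, ITGB5 and COL22A1 were above, and COL1A1, COL4A1 and ITGA6 below, at both times. By replicate, the median difference over the 41 chains at 24 h was -0.14, 0.06 and -0.10 for replicates 1, 2 and 3, and at 48 h -0.01, 0.01 and -0.08. These medians near 0 stand over differences that ran both ways within each replicate.

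**Figure D1:**
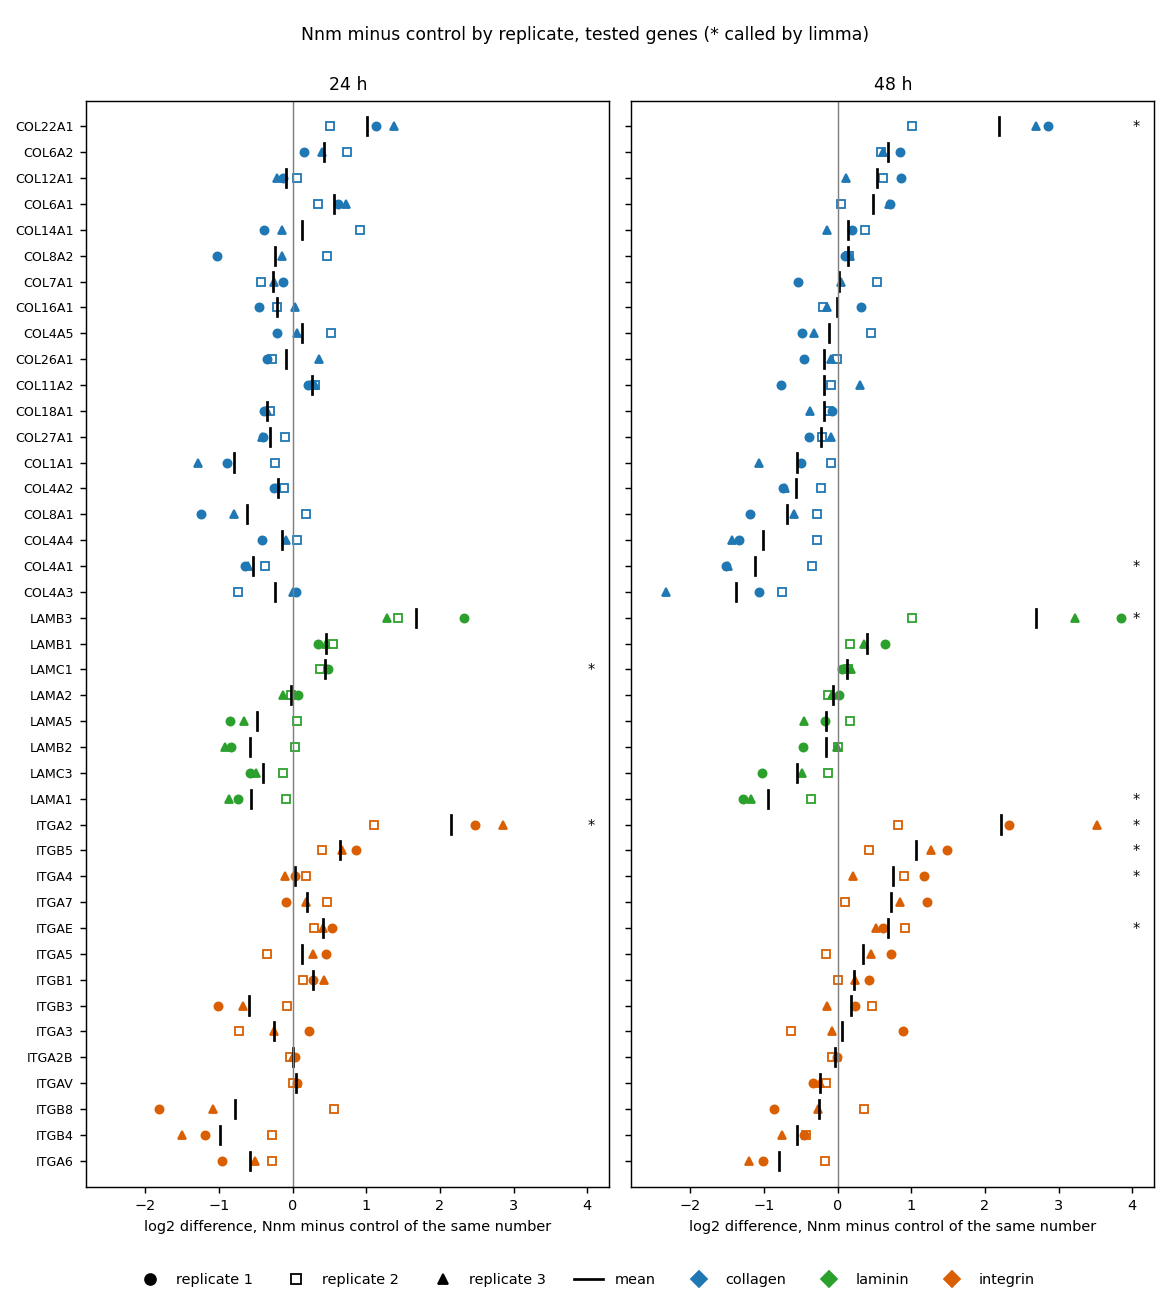
Difference in log2 expression between the Nnm array and the control array of the same replicate number for the 41 tested chains, at 24 h and at 48 h, with replicates 1, 2 and 3 as different symbols, a vertical bar at their mean and asterisks at chains called by limma. At 48 h LAMB3, COL22A1 and ITGA2 lie farthest to the higher side, with replicate 2 nearest to 0 in each.

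Among the collagens, COL22A1 was higher and COL4A1 lower in Nnm cells at 48 h, and at 24 h 0 of 19 were called by limma (4 at an unadjusted p under 0.05). COL22A1 encodes a collagen of tissue junctions that associates with fibrils. At 48 h it was at 10.08, 7.89 and 9.57 on the Nnm arrays, against 7.22, 6.88 and 6.88 on the control arrays. All 3 Nnm arrays were above the control arrays, replicate 2 by the least. The means were 9.18 ± 1.15 in Nnm cells and 6.99 ± 0.20 in control cells (SD, n = 3 arrays each), a log2 difference of 2.19 ± 0.45 (SE) or 4.56-fold (limma, adjusted p = 0.0199). Without the Nnm arrays numbered 2 it was 2.84. At 24 h it was at 7.82, 7.19 and 7.84 on the Nnm arrays and at 6.68, 6.68 and 6.46 on the control arrays, a difference of 1.01 that was not called (adjusted p = 0.136). A second probe set of COL22A1 differed by 0.17 at 48 h (adjusted p = 0.723), so the rise rests on 1 probe set and the probe sets disagree.

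COL4A1, the more widespread chain of type IV collagen with COL4A2, was at 11.04, 11.87 and 10.93 on the Nnm arrays of 48 h, against 12.55, 12.22 and 12.42 on the control arrays. The Nnm arrays all lay below, replicate 2 closest. The means were 11.28 ± 0.51 in Nnm cells and 12.40 ± 0.17 in control cells, a log2 difference of -1.12 ± 0.24 or 2.17-fold lower (limma, adjusted p = 0.023), and a second probe set of the gene differed by -1.10 (adjusted p = 0.0193). The difference was -1.41 without the Nnm arrays numbered 2. At 24 h the Nnm arrays were at 11.99, 11.75 and 11.64 and the control arrays at 12.64, 12.12 and 12.24, again without overlap, but the difference of -0.54 was not called (adjusted p = 0.139). Leaving out Nnm replicate 1 or 3 or any 1 of the 3 control arrays of 48 h lost the 48 h call of COL4A1 (adjusted p 0.0507 to 0.0982) and that of COL22A1 (0.0588 to 0.0832).

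The other type IV chains were followed as gene pairs. COL4A2, the partner of COL4A1, was at 12.24, 12.17 and 11.98 on the Nnm arrays of 48 h, against 12.98, 12.40 and 12.70 on the control arrays, all below. Its difference of -0.56 ± 0.21 was not called (limma, adjusted p = 0.101) but was with the replicate block (adjusted p = 0.021). At 24 h COL4A2 differed by -0.20 (adjusted p = 0.525), with overlapping arrays. The COL4A3 and COL4A4 pair lay near the filter level. COL4A3 was at 2.55, 4.62 and 2.58 on the Nnm arrays of 48 h, against 3.62, 5.37 and 4.91 on the control arrays, and COL4A4 at 3.77, 5.43 and 4.28 against 5.11, 5.71 and 5.71. In both genes replicate 2 was the highest Nnm array and overlapped with the control range. COL4A3 passed the filter on 3 arrays only, 2 of them control arrays of 48 h, and its Nnm mean of 3.25 lay under log2 4. Against that level it was at least 1.55-fold lower than the control mean of 4.63, not called (adjusted p = 0.132, with the block 0.0439). COL4A4 differed by -1.02 (0.0869, with the block 0.035), and by -1.49 without the Nnm arrays numbered 2 (0.000853). A second probe set of COL4A4 differed by -0.82 at 48 h, not called with all arrays (limma, adjusted p = 0.484). At 24 h COL4A3 and COL4A4 averaged under log2 4 in Nnm cells (2.58 and 3.97), with control means of 2.81 and 4.12. In control cells at 48 h COL4A3 was thus at least 1.55-fold and COL4A4 1.39 on the log2 scale above control cells at 24 h, which were not called (adjusted p = 0.497 and 0.404). COL4A5, which pairs with COL4A6, differed by -0.12 at 48 h (adjusted p = 0.853), by -0.59 without the Nnm arrays numbered 2 (0.0416) and by 0.12 at 24 h (0.831), and COL4A6 was under the filter on every array.

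**Figure D2:**
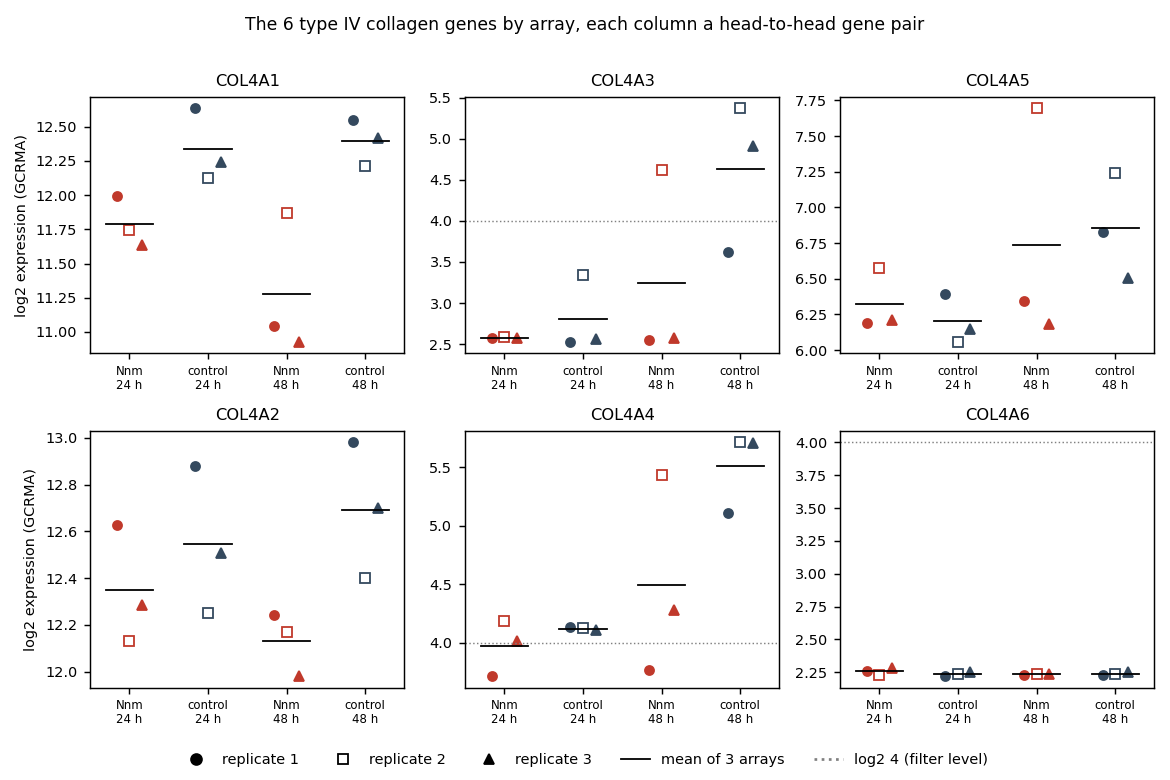
Log2 expression of the 6 type IV collagen chains on each array, arranged in columns by head-to-head gene pair, with Nnm left of control at each time, symbols for replicates 1 to 3, bars at the mean of 3 arrays and a dotted line at log2 4. COL4A1 lies lower on all 3 Nnm arrays at both times, and COL4A2 at 48 h.

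COL1A1, the fibrillar type I chain, was at 8.12, 8.53 and 7.43 on the Nnm arrays of 24 h, against 9.01, 8.76 and 8.72 on the control arrays. All Nnm arrays were lower, the difference of -0.80 ± 0.28 missed the threshold (limma, adjusted p = 0.0729), and it passed with the replicate block (0.0334) and without the Nnm arrays numbered 2 (-1.05, 0.00417). At 48 h it was at 7.70, 8.08 and 7.18 on the Nnm arrays and at 8.20, 8.16 and 8.24 on the control arrays, a difference of -0.55 (adjusted p = 0.209). Its other tested probe sets differed by -0.27 and -0.64 at 24 h (adjusted p = 0.244 and 0.0376) and by -0.30 and 0.05 at 48 h. COL6A1 and COL6A2, chains of the beaded type VI filaments, differed by 0.56 and 0.43 at 24 h (adjusted p = 0.081 and 0.609) and by 0.48 and 0.69 at 48 h (0.14 and 0.429). Their level varied with the replicate number, COL6A2 being at 8.99, 7.46 and 8.57 on the Nnm arrays of 48 h against 8.14, 6.88 and 7.95 on the control arrays. With the replicate block COL6A2 was called at both times (adjusted p = 0.0371 and 0.0127) and COL6A1 at 24 h (0.032). On its other tested probe set COL6A2 differed by 0.276 at 24 h and by -0.015 at 48 h, not called by limma. The COL6A2 probe sets thus disagree at 48 h. Other tested probe sets of COL6A1 differed by 0.156 to 0.609 at 24 h and by 0.061 to 0.856 at 48 h. None of these was called by limma. COL18A1, the source of endostatin, differed by -0.34 at 24 h (adjusted p = 0.411), called with the block (0.0374). A second probe set of COL18A1 differed by 0.043 at 24 h (limma, adjusted p = 0.914), so its probe sets disagree. COL8A1, a short network collagen, differed by -0.62 and -0.69 at 24 h and 48 h (adjusted p = 0.204 and 0.188), and without the Nnm arrays numbered 2 by -1.03 and -0.95, both called (0.00067 and 0.00131). The remaining collagens, COL7A1, COL8A2, COL11A2, COL12A1, COL14A1, COL16A1, COL26A1 and COL27A1, differed by -0.31 to 0.27 at 24 h and by -0.23 to 0.53 at 48 h, with 0 called in limma or with the block (0 at an unadjusted p under 0.05 at each time).

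**Figure D3:**
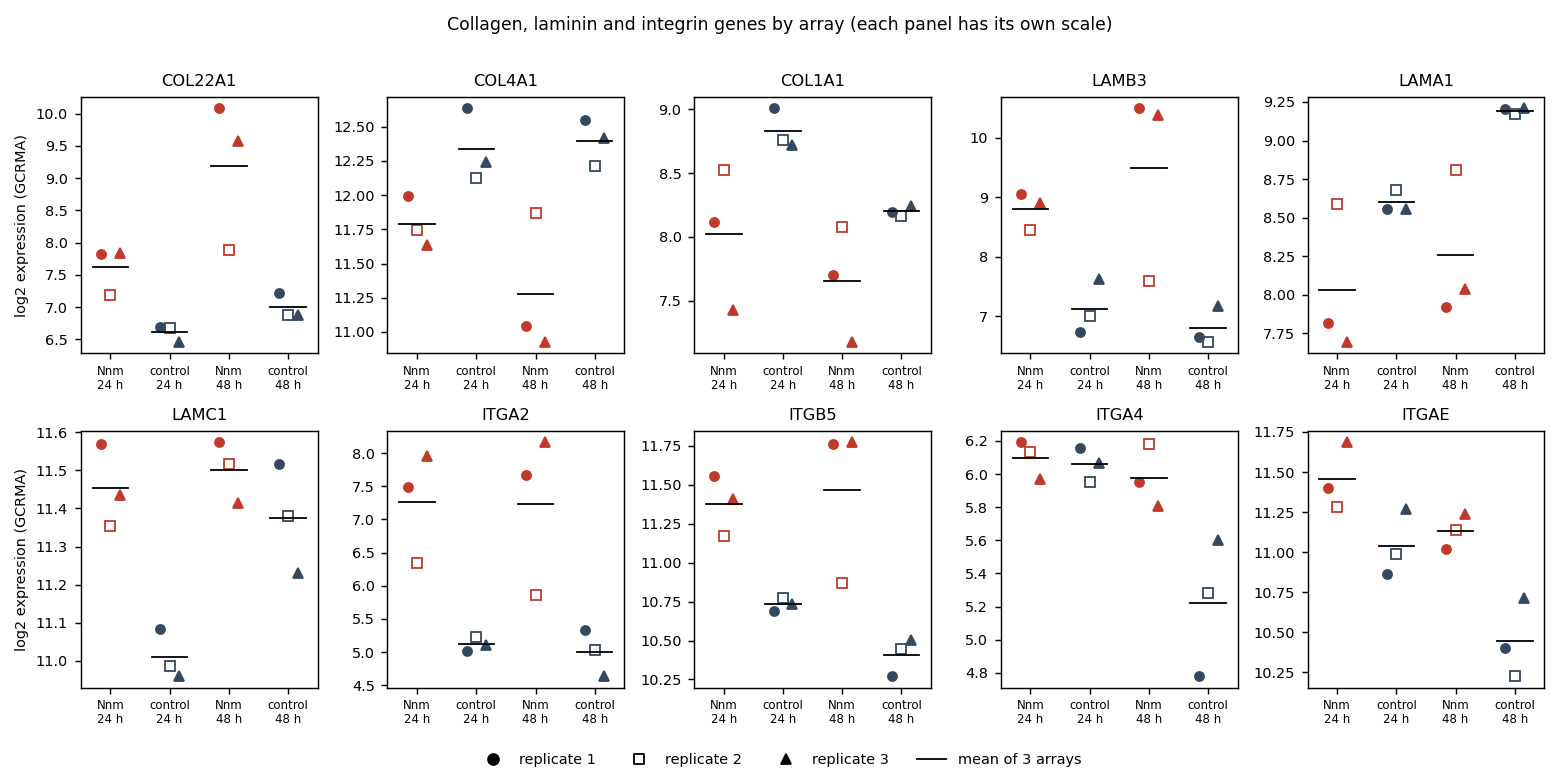
Log2 expression on each array of the 10 chains described with every value, as Nnm 24 h, control 24 h, Nnm 48 h and control 48 h from left to right, with symbols for replicates 1 to 3 and bars at the mean of 3 arrays. LAMB3, COL22A1 and ITGA2 have Nnm replicate 2 nearer to the control arrays than replicates 1 and 3, and ITGA4 and ITGAE have their 3 Nnm arrays of 48 h close together.

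Among the laminins, LAMB3 was higher and LAMA1 lower in Nnm cells at 48 h, and LAMC1 was higher at 24 h. LAMB3 encodes a beta chain of the laminin that anchors epithelial sheets such as the epidermis. At 48 h it was at 10.50, 7.58 and 10.38 on the Nnm arrays, against 6.65, 6.57 and 7.17 on the control arrays. Replicate 2 was close to the control arrays and replicates 1 and 3 far above. The means were 9.49 ± 1.65 in Nnm cells and 6.80 ± 0.32 in control cells (SD, n = 3 arrays each), a log2 difference of 2.69 ± 0.64 (SE) or 6.46-fold (limma, adjusted p = 0.0302), and 3.64 without the Nnm arrays numbered 2. At 24 h the Nnm arrays were at 9.06, 8.44 and 8.90 and the control arrays at 6.74, 7.01 and 7.62, without overlap. That difference of 1.68 was not called (adjusted p = 0.0935) but was with the replicate block (0.0468).

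LAMA1, an alpha chain prominent in embryonic and kidney basement membranes, was at 7.92, 8.81 and 8.04 on the Nnm arrays of 48 h, against 9.20, 9.17 and 9.21 on the control arrays. All Nnm arrays lay below a tight control group. The difference was -0.94 ± 0.26 or 1.92-fold lower (limma, adjusted p = 0.0494), and -0.57 at 24 h (adjusted p = 0.151), where the arrays overlapped. It was -1.22 at 48 h and -0.84 at 24 h (0.000231) without the Nnm arrays numbered 2. LAMC1, the gamma chain of most laminins, was at 11.57, 11.35 and 11.43 on the Nnm arrays of 24 h, against 11.08, 10.99 and 10.96 on the control arrays, a difference of 0.44 ± 0.12 or 1.36-fold (adjusted p = 0.0366). The arrays did not overlap and varied little. A second probe set of LAMC1 differed by 0.10 at 24 h (adjusted p = 0.541). At 48 h LAMC1 was at 11.57, 11.52 and 11.41 on the Nnm arrays and at 11.52, 11.38 and 11.23 on the control arrays, a difference of 0.13 with a 95% interval from -0.14 to 0.39 (adjusted p = 0.507).

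The 48 h call of LAMB3 was lost without Nnm replicate 1 or 3 or any 1 control array of that time (limma, adjusted p 0.0762 to 0.12). That of LAMA1, nearest to the threshold, was lost without any array but Nnm replicate 2 of either time (0.055 to 0.18), and the 24 h call of LAMC1 without Nnm replicate 1 or 3 of 24 h, any 1 control array of 24 h or control replicate 2 of 48 h (0.0548 to 0.145). LAMB1, the beta chain that forms trimers with LAMC1, had all Nnm arrays above the control arrays at both times. It differed by 0.45 and 0.39 at 24 h and 48 h, not called (adjusted p = 0.0869 and 0.143), and with the block was called at 24 h (0.0303). LAMA2, LAMA5, LAMB2 and LAMC3 differed by -0.58 to -0.03 at 24 h and by -0.55 to -0.06 at 48 h, with 0 called in limma or with the block (1 at an unadjusted p under 0.05 at each time).

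Among the integrins, ITGA2 was higher in Nnm cells at both times and ITGB5, ITGA4 and ITGAE at 48 h, while 0 of 14 were called lower at either time by limma (2 and 1 at an unadjusted p under 0.05). ITGA2 is the alpha subunit of a collagen and laminin receptor with ITGB1. At 24 h it was at 7.49, 6.34 and 7.96 on the Nnm arrays, against 5.01, 5.23 and 5.11 on the control arrays. Every Nnm array was above, replicate 2 by the least. The means were 7.26 ± 0.84 in Nnm cells and 5.12 ± 0.11 in control cells (SD, n = 3 arrays each), a difference of 2.15 ± 0.55 (SE) or 4.43-fold (limma, adjusted p = 0.0322). At 48 h it was at 7.67, 5.86 and 8.16 on the Nnm arrays and 5.34, 5.04 and 4.64 on the control arrays, a difference of 2.22 ± 0.55 or 4.67-fold (adjusted p = 0.0342). Without the Nnm arrays numbered 2 the differences were 2.61 and 2.91. A second probe set of ITGA2 was at least 1.69-fold higher at 24 h and at least 1.77-fold at 48 h. Its control means lay under log2 4 at both times, so no p is read from it. The 24 h call was lost without Nnm replicate 1 or 3 or any 1 control array of 24 h (0.0636 to 0.123). The 48 h call was lost without Nnm replicate 1 or 3 of 48 h or any 1 control array of either time (0.0519 to 0.132).

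ITGB5 is a beta subunit that joins ITGAV in a receptor for vitronectin. At 48 h it was at 11.76, 10.87 and 11.77 on the Nnm arrays, against 10.27, 10.44 and 10.50 on the control arrays. All Nnm arrays lay above, and the difference was 1.06 ± 0.22 or 2.09-fold (limma, adjusted p = 0.0211), and 1.36 without the Nnm arrays numbered 2. At 24 h the arrays were likewise separate, at 11.55, 11.17 and 11.41 in Nnm cells and 10.69, 10.77 and 10.74 in control cells, and the difference of 0.64 was not called (adjusted p = 0.0731) but was with the block (0.0468). Of its 3 other tested probe sets at 48 h, those with differences of 0.75 and 0.75 were called (0.0419 and 0.0364), and the third, under log2 4 in control cells, was not (at least 1.65-fold, 0.264). The alpha partner ITGAV was at 14.11, 13.99 and 14.16 on the Nnm arrays of 24 h, against 14.06, 13.98 and 14.10 on the control arrays, and it differed by 0.04 at 24 h and -0.24 at 48 h (adjusted p = 0.83 and 0.184). The 48 h call of ITGB5 was lost without Nnm replicate 1 or 3 or any 1 control array of 48 h (0.0563 to 0.0901).

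ITGA4, whose product binds fibronectin and VCAM1 and is best known on leukocytes, was at 5.95, 6.18 and 5.81 on the Nnm arrays of 48 h, against 4.78, 5.28 and 5.60 on the control arrays, a difference of 0.76 ± 0.20 or 1.69-fold (limma, adjusted p = 0.0383). At 24 h the arrays overlapped, at 6.19, 6.13 and 5.97 in Nnm cells and 6.16, 5.96 and 6.07 in control cells, and the difference was 0.04 (0.91). Thus the Nnm level was much the same at both times while the control level was lower at 48 h, by 0.84, which was not called (0.36). A second probe set of ITGA4 averaged under log2 4 at 48 h in both groups (3.89 in Nnm cells and 3.29 in control cells), so no difference is read from it. ITGAE, the alpha subunit that pairs with ITGB7 to bind E-cadherin, was at 11.02, 11.14 and 11.24 on the Nnm arrays of 48 h, against 10.40, 10.23 and 10.71 on the control arrays, a difference of 0.68 ± 0.17 or 1.61-fold (0.0344). At 24 h it was at 11.40, 11.28 and 11.68 on the Nnm arrays and 10.86, 10.99 and 11.27 on the control arrays, and its difference of 0.42 was not called (0.109) but was with the block (0.0278). The partner ITGB7 did not pass the filter. The ITGA4 call was lost without any array but Nnm replicate 2 of either time and control replicate 3 of 48 h (0.051 to 0.117). The ITGAE call was lost without Nnm replicate 1 or 3 or any 1 control array of 48 h, or control replicate 2 of 24 h (0.0522 to 0.124).

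The other integrins of epithelia were not called on the probe sets that stand for them. ITGB1, the common partner of most collagen and laminin receptor subunits, differed by 0.28 and 0.22 at 24 h and 48 h (limma, adjusted p = 0.224 and 0.365). ITGB4, which with ITGA6 forms the hemidesmosome receptor for laminin, was at 6.11, 6.77 and 5.57 on the Nnm arrays of 24 h, against 7.31, 7.04 and 7.06 on the control arrays. All Nnm arrays were lower and the difference of -0.99 ± 0.31 missed the threshold (0.0546), passing it with the block (0.048) and without the Nnm arrays numbered 2 (-1.30, 0.00264). ITGA6 was lower on all Nnm arrays at both times, by 0.58 at 24 h (0.127) and by 0.80 at 48 h (0.067, with the block 0.0363). Without the Nnm arrays numbered 2 ITGA6 fell by 1.12 at 48 h (0.00056), and a second probe set of it fell by 0.63 at 48 h with all arrays (0.0324). At 24 h all Nnm arrays thus lay below the control arrays for both hemidesmosome subunits and above them for LAMB3. ITGB3, the partner of ITGAV and ITGA2B, differed by -0.58 at 24 h (0.146, with the block 0.044) and 0.18 at 48 h (0.682). Of its 4 other tested probe sets, 3 differed by 0.05 to 0.24 at 48 h and the fourth by -0.82, which was called (0.0493), so they disagree. ITGA7, a laminin receptor subunit of muscle, was at 6.09, 4.97 and 5.71 on the Nnm arrays of 48 h, against 4.87, 4.88 and 4.87 on the control arrays, a difference of 0.72 (0.077) and of 1.03 without the Nnm arrays numbered 2 (0.000407). ITGB8, which with ITGAV releases active TGF beta, varied widely on the Nnm arrays of 24 h, at 9.86, 12.24 and 10.41 against 11.67, 11.69 and 11.49 on the control arrays, and differed by -0.78 (0.331). Without the Nnm arrays numbered 2 ITGB8 fell by 1.48 at 24 h (0.000531) and by 0.70 at 48 h (0.0256), against -0.26 at 48 h with all arrays (0.787). Its other tested probe sets differed by -1.27 and -0.21 at 24 h and by 0.18 and -0.12 at 48 h. With all arrays they were not called (limma, adjusted p 0.203 to 0.918). ITGA3, ITGA5 and ITGA2B differed by -0.25 to 0.13 at 24 h and by -0.03 to 0.34 at 48 h, with 0 called with all arrays (0 at an unadjusted p under 0.05 at each time, 0 with the block).

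**Figure D4:**
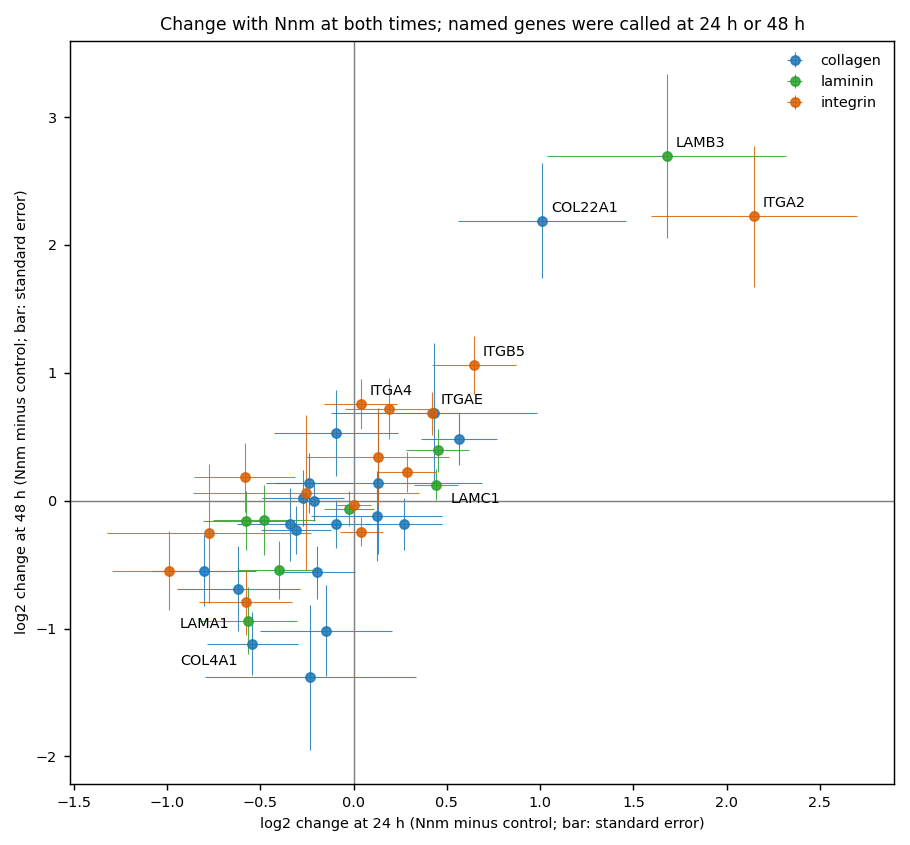
Log2 difference between Nnm and control cells at 24 h on the horizontal axis and at 48 h on the vertical axis for the 41 tested chains, with bars of 1 SE and names at the chains called at either time. ITGA2 lies at 2.15 and 2.22, LAMB3 at 1.68 and 2.69, and COL22A1 at 1.01 and 2.19.

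Whether the Nnm difference itself was unlike at the 2 times was tested as an interaction. For 0 of 41 chains was it called (limma, lowest adjusted p = 0.78, 1 at an unadjusted p under 0.05), against 0% of all genes, and 0 were with the replicate block. The chain at an unadjusted p under 0.05 was ITGA4, with a change of 0.72 ± 0.28. A chain called at 1 time and not at the other is therefore not shown to differ between the times. For LAMC1 the change was -0.32 with a 95% interval of -0.69 to 0.06, and for COL4A1 -0.57 with -1.34 to 0.19. Without Nnm replicate 2 of 48 h, COL22A1 was called for it (1.83, adjusted p = 0.0495). Without both Nnm arrays numbered 2, COL22A1 (1.61), LAMB3 (1.79), ITGA7 (0.95), ITGB5 (0.61) and COL4A4 (-1.23) were called, with adjusted p of 0.00814 to 0.0393, and with the block added to that fit 11 were. Control cells at 48 h against control cells at 24 h likewise gave 0 of 41 chains called (lowest adjusted p = 0.36, 10 at an unadjusted p under 0.05), against 0% of all genes, and 0 with the block. With the block and without the Nnm arrays numbered 2, 10 were called.

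Genes that build, join, cleave or read the matrix were counted beside the chains. The shares of all genes called, given above, were 8.31% higher and 8.21% lower at 24 h and 6.55% and 4.27% at 48 h by limma, and with the block 15.6% and 15.9% at 24 h and 13.2% and 9.68% at 48 h. Of 26 tested genes of collagen assembly and crosslinking, 2 rose at 24 h (7.69%), 1 at 48 h (3.85%) and 0 fell by limma (7 at an unadjusted p under 0.05 at 24 h and 6 at 48 h, both directions). With the block 3 rose and 2 fell at 24 h (11.5% and 7.69%), and 4 rose and 1 fell at 48 h (15.4% and 3.85%). PCOLCE2, which enhances the trimming of procollagen, rose by 0.66 at 24 h (adjusted p = 0.0319) and by 1.30 at 48 h (0.00536), and MIA3, which loads procollagen for export, by 0.92 at 24 h (0.0332). Of 13 tested partners in the basement membrane, 0 were called at 24 h (0 at an unadjusted p under 0.05, 0 with the block) and 1 rose at 48 h (7.69%), NID1 (nidogen), by 1.00 (0.042), while with the block 2 rose and 1 fell at 48 h (15.4% and 7.69%). Of 16 tested other integrin ligands, 2 fell at 24 h (12.5%), and at 48 h 2 rose (12.5%) and 1 fell (6.25%), with the block 1 rose and 2 fell at 24 h and 4 rose and 2 fell at 48 h. THBS1 (thrombospondin) fell by 1.70 at 24 h (0.0101) and by 0.98 at 48 h (0.0403), and CCN1 by 2.02 at 24 h (0.0184). The fibrillin FBN2 was at 6.01 ± 1.01 in Nnm cells of 48 h and under the filter level in control cells (3.76 ± 0.01), at least 4.02-fold higher against log2 4. Control means of FBN2 were under the filter level at both times, so it owed its place among the genes tested to Nnm arrays, and no p is read from it. FBN1, named after its values were seen, rose by 0.63 at 48 h (0.0329).

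Of 25 tested genes of the adhesion complex on the inner side of integrins, 4 fell at 24 h (16%), 2 fell at 48 h (8%) and 0 rose (limma, 8 at an unadjusted p under 0.05 at 24 h and 6 at 48 h, both directions). With the block 9 fell at 24 h (36%), 4 fell at 48 h (16%) and 0 rose. The actin crosslinkers ACTN4 and ACTN1 fell by 1.25 and 1.18 at 24 h (adjusted p = 0.0121 and 0.011) and ACTN4 by 0.92 at 48 h (0.0277), and PARVB, a parvin that links integrin-linked kinase to actin, fell by 1.22 at 24 h (0.0305). The other calls, named after their values were seen, were RSU1 at 24 h, which fell by 0.57 (0.0367), and CAV1 at 48 h, which fell by 0.89 (0.0429). The median difference over the 25 was -0.34 at 24 h and -0.13 at 48 h, beside -0.01 and 0.02 over all genes. Of 20 tested matrix proteases and inhibitors, 3 rose at 24 h (15%), 1 rose at 48 h (5%) and 0 fell (3 and 6 at an unadjusted p under 0.05, both directions). With the block 3 rose at 24 h, and 5 rose and 1 fell at 48 h (25% and 5%). CTSK, a collagen-cleaving cathepsin, rose by 1.35 (0.0371), ADAM17, a sheddase, by 0.73 (0.0357) and MMP16, a membrane-bound metalloproteinase, by 0.56 (0.0381) at 24 h, and TIMP1, an inhibitor of metalloproteinases, by 0.44 at 48 h (0.0303). Of 7 tested matrix receptors that are no integrins, 0 were called at either time (1 at an unadjusted p under 0.05 at each). With the block 1 was higher and 1 lower at 24 h and 1 lower at 48 h, and the smallest p was that of BCAM, a laminin receptor, with -0.64 at 48 h (0.0603). Among 8 tested epithelial and tubule markers 1 rose, CDH2 (N-cadherin), by 0.76 at 48 h (0.0483), with 4 at an unadjusted p under 0.05, and with the block CDH1 was lower at 48 h (-0.88, 0.0375).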

How the data were processed

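Total RNA from HK-2 cells was converted to biotinylated cRNA and, per the labels' protocols, hybridised to Affymetrix arrays, 12 in all. The authors deposited log2 expression values, 1 for each probe set on each array. The submitters' processing notes name GCRMA, without a version. The set of arrays that was normalized together is not known from the sources. GCRMA gives all arrays similar distributions, which hides any shift common to the majority of genes. They carry no detection call, and the number of arrays limits the precision. Replicates are biological as labelled, and p-values measure the spread between them.

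Of 54675 probe sets, 62 manufacturer's controls were left out, and 22829 were above log2 4 on at least 3 of 12 arrays and were tested. Names came from the platform annotation, updated through RefSeq (GRCh38.p14), where all 81 genes matched. All arrays entered 1 model of 4 groups in limma 3.58.1 under R 4.3.3 (lmFit, contrasts.fit, eBayes), with 8 residual degrees of freedom and Benjamini-Hochberg adjustment over all tested probe sets, and every adjusted p comes from it unless an alternative is named. The code was tested on simulated data. A fold against a mean under log2 4 is a lower bound computed against that level. Summed marker levels are the log2 of summed linear values over all markers of a list on the array, so the brightest markers weigh most.

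Named with every array value were the called chains, or the 3 with the smallest p of a family with fewer than 3 called. From each other list at most 3 called genes with the largest change were named, else the 1 with the smallest p. The members and lists were chosen with earlier results of these data known. The replicate numbers paired the samples by a check of the data and not by the labels: arrays of 1 number but different groups correlated at 0.162 to 0.669 in their deviations from the group means (18 pairs), all over 0.1. The 36 pairs of unlike number ran from -0.655 to 0.372 with a median of -0.208, and 2 of them were over 0.1, so the ranges overlap. Alternatives were the filter, the block, single arrays left out, the Nnm arrays numbered 2 left out, further normalization, array weights, the prior and the choice of probe set.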

Additional observations from a re-analysis of the deposited data

How the results depend on the processing

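The counts of chains called by limma were 2 at 24 h and 8 at 48 h. They were within 1.5 times of these with a stricter filter, with arrays centred on their medians, with quantile normalization repeated, with an intensity trend and robust prior, and with either other choice of probe set. They became 1 and 0 with no filter (so that more probe sets were tested), 12 and 13 with the replicate block over all arrays, 0 and 0 with the replicate block within each time (14 and 17 at an unadjusted p under 0.05), 0 and 0 with only the 6 arrays of that time (12 and 13), 19 and 20 without the Nnm arrays numbered 2, 20 and 19 with array weights, and 24 and 22 without the Nnm arrays numbered 2 and with the block, which was chosen after seeing the data. The fits within a time rest on fewer samples, and the cause of the other shifts was not tested. Where the counts stayed within 1.5 times, the chains were not all the same. ITGB4 was called lower at 24 h with the stricter filter and with centred arrays. With the mean of all tested probe sets LAMC1 lost its 24 h call. That mean added COL1A1 and ITGB4 as lower at 24 h and ITGA6 at 48 h. With the probe set of largest variance ITGA4 and ITGB5 lost their 48 h calls. Leaving out 1 array gave 0 to 13 chains at 24 h and 0 to 13 at 48 h. The change of the Nnm difference with time, called for 0 chains, was called for 5 without the Nnm arrays numbered 2, for 6 with array weights, for 11 without the Nnm arrays numbered 2 and with the block, and for 0 to 1 with 1 array left out. Time in control cells, called for 0, was called for 1 with array weights (COL4A4, 1.44, adjusted p = 0.025), for 10 without the Nnm arrays numbered 2 and with the block, and for 0 with any 1 array left out. For the 10 chains described with every value, 363 of the alternative results kept their direction and side of the threshold, 36 crossed to being called, 97 lost the call and 4 turned direction. All 4 were ITGA4 at 24 h, 0.038 with all arrays and not called: -0.013 with array weights, -0.027 on the probe set with the largest variance, and -0.013 to 0.103 with 1 array left out. With 3 arrays a group, the number of arrays limits what can be called, and values under log2 4 have no detection call.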
